A study of Mus musculus with 4 samples.

Results

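The transcripts described here are those of the cytochrome P450 genes of the mouse that lie outside the Cyp3a, Cyp2b and Cyp2c subfamilies, measured in small intestine. Every gene symbol that starts with Cyp and a digit was taken, apart from those 3 subfamilies and from Cyp24a1, Cyp27b1 and Cyp51, which gave 69 of the 21153 named genes on the array. The control animals were wild type and the other animals were Cyp3a-/-, mice without the cluster of Cyp3a genes. RNA of each genotype was read on 2 arrays, and per the series' design text the experiments used different animals. Strain, age, sex, the stretch of intestine taken and the number of animals behind an array are not given in the sources used here. The same sources do not state whether the deletion was made in the whole animal, and they record no treatment of either genotype. Each value, called a level here, is the log2 signal of a gene's brightest probe minus the 75th percentile of its array, and pairs of levels are given in the order of arrays 1 and 2. A level of 0 is thus a bright probe by the standard of its array, and levels of different genes cannot be set against each other, because probes differ in how well they bind.

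P450 enzymes are haem proteins that insert 1 oxygen atom into a substrate. Most sit in the endoplasmic reticulum and take electrons from NADPH through P450 oxidoreductase (Por), while a few lie in mitochondria and use adrenodoxin (Fdx1). Absorptive cells of the small intestine are, after the liver, a main place where swallowed chemicals are oxidised. Families 1 and 2 are mostly known for foreign compounds, family 4 for the omega-hydroxylation of fatty acids and eicosanoids, and families 7, 8, 11, 17, 19, 21, 26, 27, 39 and 46 for sterols, steroids and retinoic acid. Cyp1a1 and Cyp1b1 are switched on by the aryl hydrocarbon receptor (Ahr), which binds the xenobiotic response element, whose core reads GCGTG, and Cyp4a genes are classical targets of the fatty acid receptor PPAR alpha.

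The promoters below are the 250 bases before the start of 6 genes, from RefSeq with build GRCm38.p6, 5′ to 3′ on the gene's own strand. They are shown for the 3 members of family 1, for the pair of members with a window and a signal above background on all 4 arrays that differed most between the knockout arrays after Cyp1a1 (Cyp4a32 and Cyp4b1), and for Cyp26b1, the member with the smallest p. Capitals mark the letters GCGTG or TATAAA, read on either strand, so that CACGC and TTTATA are the same letters on the other strand. The windows lie at chr9:57697363-57697612 on the plus strand, chr17:79715062-79715311 on the minus strand, chr9:57683656-57683905 on the minus strand, chr4:115600688-115600937 on the plus strand, chr4:115647722-115647971 on the minus strand and chr6:84593811-84594060 on the minus strand.
Cyp1a1: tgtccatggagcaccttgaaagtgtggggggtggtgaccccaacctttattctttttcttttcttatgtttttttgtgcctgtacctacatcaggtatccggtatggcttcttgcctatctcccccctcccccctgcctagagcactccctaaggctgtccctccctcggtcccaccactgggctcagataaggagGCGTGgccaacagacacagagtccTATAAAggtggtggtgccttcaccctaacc
Cyp1b1: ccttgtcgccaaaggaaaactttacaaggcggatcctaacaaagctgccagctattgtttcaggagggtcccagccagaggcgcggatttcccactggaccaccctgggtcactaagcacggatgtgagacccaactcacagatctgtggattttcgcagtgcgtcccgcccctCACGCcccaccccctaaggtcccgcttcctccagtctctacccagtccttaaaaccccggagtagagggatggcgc
Cyp1a2: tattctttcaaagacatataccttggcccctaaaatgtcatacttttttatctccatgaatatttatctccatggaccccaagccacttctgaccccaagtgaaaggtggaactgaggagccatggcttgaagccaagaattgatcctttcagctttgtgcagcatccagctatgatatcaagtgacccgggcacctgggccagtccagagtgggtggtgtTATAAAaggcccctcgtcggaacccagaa
Cyp4a32: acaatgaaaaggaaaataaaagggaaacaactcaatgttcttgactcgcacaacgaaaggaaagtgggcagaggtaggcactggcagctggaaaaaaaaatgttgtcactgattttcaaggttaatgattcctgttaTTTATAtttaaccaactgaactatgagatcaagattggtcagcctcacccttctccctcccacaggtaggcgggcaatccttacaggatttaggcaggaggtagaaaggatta
Cyp4b1: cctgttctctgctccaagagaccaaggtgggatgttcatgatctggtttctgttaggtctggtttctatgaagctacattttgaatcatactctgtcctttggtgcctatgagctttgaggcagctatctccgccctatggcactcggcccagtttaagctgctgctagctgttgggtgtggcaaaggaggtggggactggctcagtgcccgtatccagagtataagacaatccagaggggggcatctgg
Cyp26b1: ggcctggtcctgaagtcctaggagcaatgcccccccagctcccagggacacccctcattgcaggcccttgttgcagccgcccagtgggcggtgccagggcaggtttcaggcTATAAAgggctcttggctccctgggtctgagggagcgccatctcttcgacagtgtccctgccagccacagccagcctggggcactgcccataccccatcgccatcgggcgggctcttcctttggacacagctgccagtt
Cyp1a1 and Cyp1b1 each held GCGTG 1 time in this window and Cyp1a2 did not hold it. TATAAA stood in the windows of Cyp1a1, Cyp1a2, Cyp4a32 and Cyp26b1, and the Cyp4b1 window held neither. Enhancers farther out, where further response elements can lie, were not searched.

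The arrays first had to bear out their labels. Of 7 tested Cyp3a genes, 6 were at background on both knockout arrays, at least 27.2-fold to 920-fold below wild type. The other, Cyp3a13, was above background on all 4 arrays, at 4.67 and 4.98 in wild type and -0.53 and -2.57 in the knockout (limma's adjusted p = 0.105). Wild type 2 and knockout 1 shared a slide, while wild type 1 and knockout 2 each lay on a slide of their own. Knockout 1 stood farthest from the rest: over the tested genes its correlation with knockout 2 was 0.948, against 0.979 between the wild-type arrays. Between 55.1% and 64.4% of probes were well above background on an array, and no spot was saturated. With 2 arrays per genotype an exact permutation test cannot give a two-sided p under 0.333, and their number limits the precision of every difference below.

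Of the 69 P450 genes, 43 were well above background on at least 2 arrays and were tested, and 34 of these were above background on all 4. No probe of 24 others was well above background on any array, and Cyp2a12 and Cyp2f2 were above it on wild type 1 alone. The genes not above background include the P450s that define liver and endocrine glands: Cyp1a2, the liver's aromatic amine oxidiser, Cyp7a1 and Cyp8b1, which set the rate and the kind of bile acid made, and Cyp11a1, Cyp11b1, Cyp11b2 and Cyp19a1, which make pregnenolone, corticosteroids and oestrogens. Cyp26a1 and Cyp26c1, which clear retinoic acid, were also not above background. From families 2 and 4, the same held for Cyp2a22, Cyp2ab1, Cyp2g1, Cyp2w1, Cyp2j5, Cyp2j11, Cyp2u1, Cyp4a12a, Cyp4a12b, Cyp4a14, Cyp4a29, Cyp4a30b, Cyp4f37, Cyp4f39 and Cyp4x1. Such a probe gives only an upper bound, so these genes may be present at low levels.

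None of the 43 tested P450 genes passed the test between the genotypes, whose arrays varied widely. By limma's adjusted p, 0 were called in either direction, where 0.0417% of all 14399 tested genes were called, all 6 of them Cyp3a genes and all lower, and 0% were called higher. At an unadjusted p under 0.05 the count was also 0, against 0.444% of all genes. The smallest unadjusted p among the members was 0.0917 (Cyp26b1), and every adjusted p from limma was 1.00. The fitted difference was above 0 in 25 members (58.1%, against 56.2% of all genes) and below 0 in 18. Its median was 0.063 (log2), beside 0.037 for all tested genes. A measured difference of at least 2-fold occurred in 2 members that were lower (Cyp2e1 and Cyp26b1) and in 0 that were higher, against 1.36% and 0.326% of all genes.

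A wider gap lay between the knockout arrays. In 21 of the 43 members (48.8%) knockout 1 gave the highest and knockout 2 the lowest of the 4 levels, against 16.3% of all tested genes. The reverse order occurred in 4 members (9.3%), namely Cyp2s1, Cyp39a1, Cyp7b1 and Cyp20a1, against 16.6% of all genes. Knockout 1 lay above both wild-type arrays in 27 members (62.8%; all genes 37.9%) and knockout 2 below both in 24 (55.8%; all genes 26.6%). The median deviation from the wild-type mean over the members was 0.56 in knockout 1 and -0.45 in knockout 2, where all genes had 0.032 and 0.036. The wild-type arrays deviated by a median of 0.079 and -0.079. These 2 values mirror each other because they are taken from the wild-type arrays' own mean, so they are not a like measure of spread. The order with knockout 1 highest and knockout 2 lowest was noticed in the data, carries no test, and is no difference between genotypes. Among the 34 members above background on all arrays it held in 17, or 50% (all genes so filtered, 16%). With normexp background correction on all spots it held in 14 members, or 32.6%, against 21.4% of all genes.

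**Figure D1:**
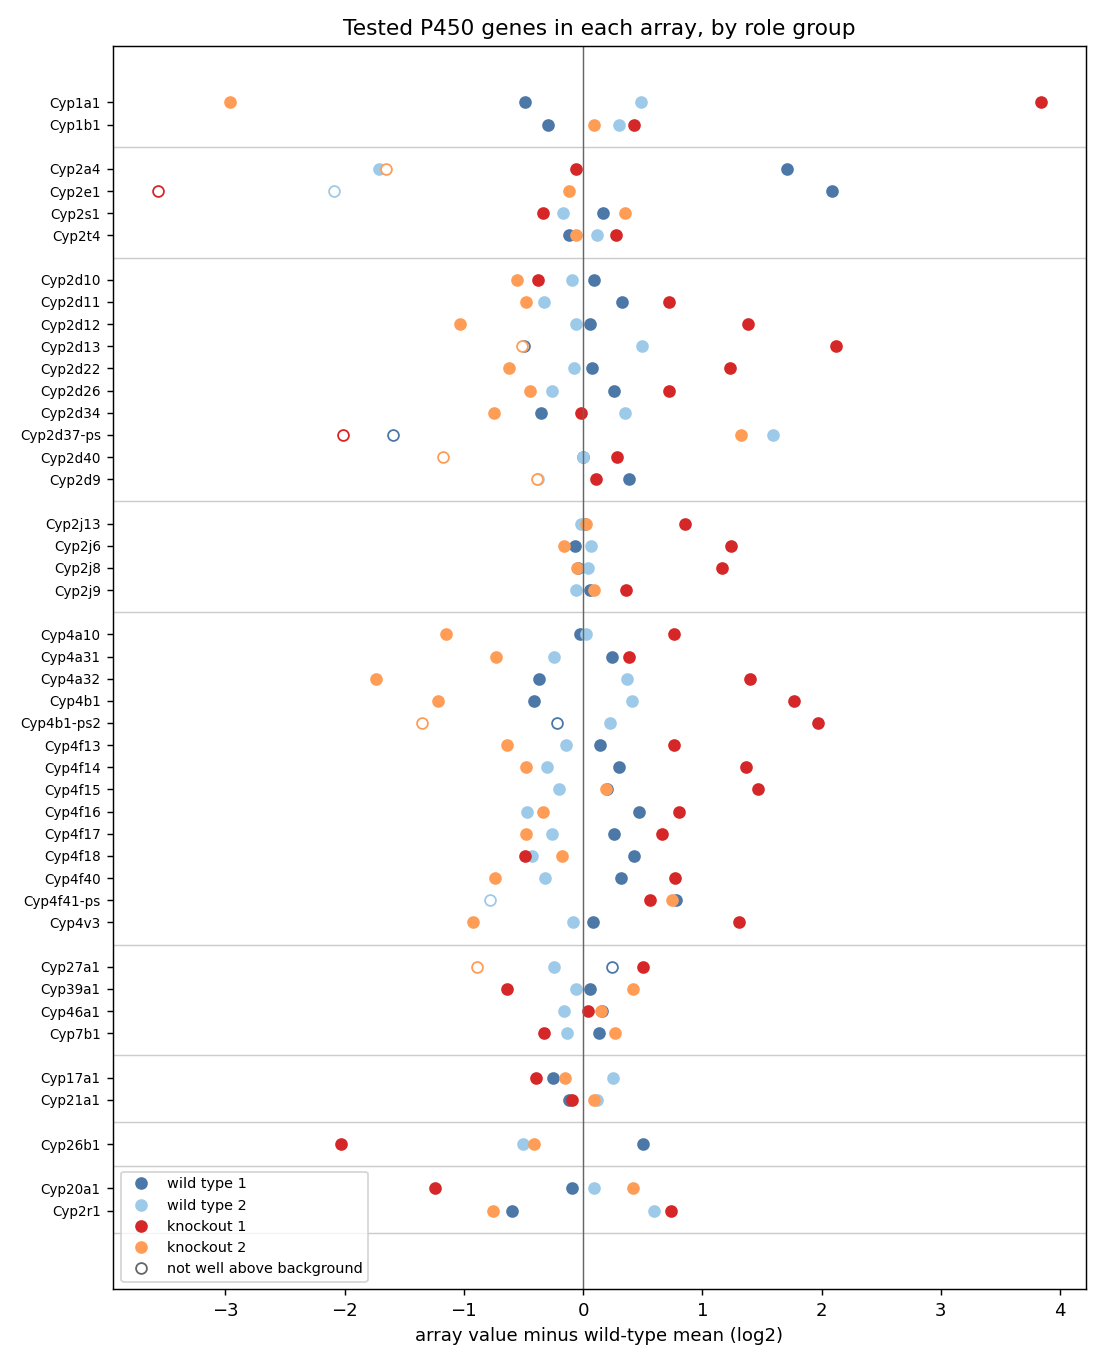
Each tested P450 gene is a row, and the 4 points give each array's level minus the wild-type mean (log2), with open points where the probe was not well above background. Knockout 1 (red) lies to the right and knockout 2 (orange) to the left in most rows of the Cyp2d and Cyp4 groups, with the widest gap at Cyp1a1.

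Markers of absorptive cells had a like order of the arrays. Of the 12 enterocyte markers tested, 8 also had knockout 1 highest and knockout 2 lowest (16.3% of all tested genes). Sucrase-isomaltase (Sis) and lactase (Lct) had knockout 1 highest, but wild type 2 lowest. The median deviation of the 12 markers was 1.15 in knockout 1 and -0.43 in knockout 2. The log2 summed level of that list came to 9.68 and 9.06 in wild type and 10.03 and 9.24 in the knockout, so by this sum knockout 2 lay between the wild-type arrays. Smooth muscle markers ran the other way, with medians of -0.91 in knockout 1 and 0.68 in knockout 2 and summed levels at 7.52 and 7.71 in wild type and 6.70 and 8.30 in the knockout. Fibroblast markers had medians of -0.59 and 0.30. The part of tissue make-up in the P450 values was not tested, and in bulk RNA fewer cells of a type and less RNA per cell cannot be told apart. Within the slide that held both genotypes, knockout 1 exceeded wild type 2 in 31 members and lay below it in 12, with a median of 0.75 (all genes 0.08).

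**Figure D2:**
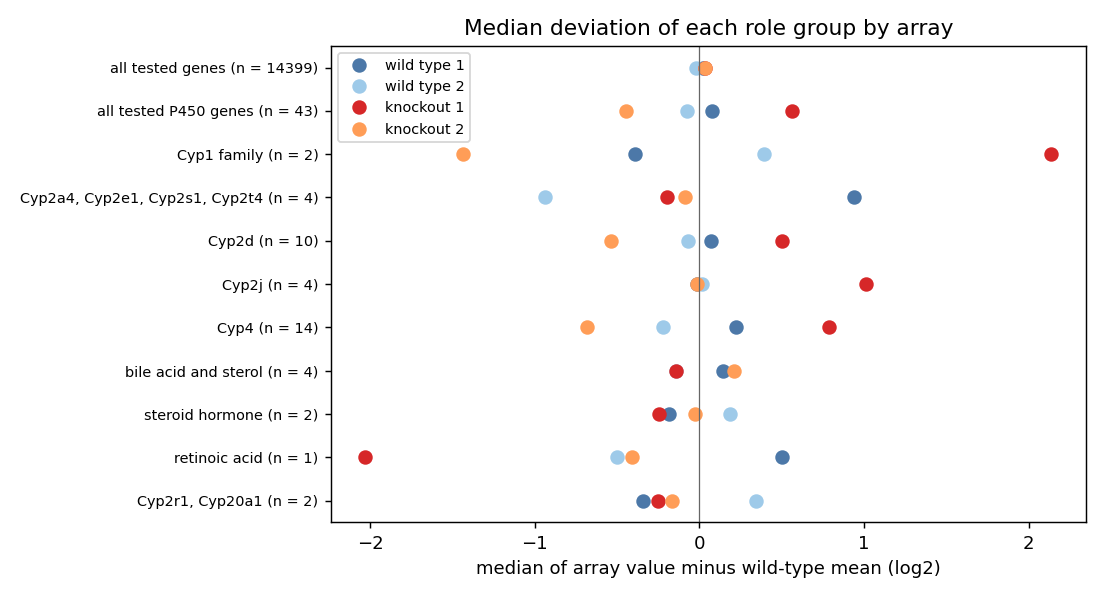
Each row is a group of P450 genes by role, with its number of tested members, and each point is the median over the group of an array's level minus the wild-type mean (log2). Knockout 1 lies above 0 and knockout 2 below 0 for Cyp1, Cyp2d, Cyp4 and, with knockout 2 at -0.016, Cyp2j. The bile acid and sterol group has the reverse order, at -0.14 and 0.21. Of the 2 Cyp1 genes, Cyp1a1 alone is below 0 in knockout 2 (Cyp1b1 0.09). All tested genes sit at 0.036 or closer to 0 on every array.

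Family 1 held the widest gap of all members. Cyp1a1, which oxidises polycyclic aromatic hydrocarbons and is the best known target of Ahr, read -0.44 and 0.53 in wild type and 3.89 and -2.91 in the knockout. Knockout 1 was the highest and knockout 2 the lowest array, each far outside the wild-type pair. The signal of knockout 1 was 14.3-fold that of the wild-type mean, the wild-type mean was 7.77-fold that of knockout 2, and the knockout arrays differed 111-fold. The genotype difference was therefore 0.44 with a standard error (SE) of 1.98 (limma's adjusted p = 1.00). With normexp background correction on all spots it was 1.79 (adjusted p = 0.069), and 1.12 with the brightest local backgrounds replaced. Without knockout 1 the gene was called lower (-2.96, limma's adjusted p = 0.00334), and without knockout 2 it was called higher (3.84, adjusted p = 9.30e-05), so a single array decides its direction.

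Cyp1b1, a relative under the same receptor that is known from stromal cells, read -3.62 and -3.03 in wild type and -2.90 and -3.24 in the knockout, and the genotypes overlapped (difference 0.26, SE 0.42). Of the 8 other genes of the Ahr pathway, 0 were called by limma, and 7 had a difference above 0 (56.2% of all tested genes). The quinone reductase Nqo1 read 0.50 and 0.87 in wild type and 1.73 and 0.99 in the knockout (difference 0.68, SE 0.35). Ahr itself read -0.23 and -0.02 in wild type and 1.16 and -0.01 in the knockout (difference 0.70, SE 0.43). Both were highest in knockout 1, and in both knockout 2 also lay above both wild-type arrays. For Ahr this was narrow, at -0.011 in knockout 2 against -0.019 in wild type 2. Of the 8 genes, 3 had both knockout arrays above both wild-type arrays, a pattern of 8.65% of all tested genes. The Ahr repressor gene Ahrr, itself a target of the receptor and named here after its values were seen, read -2.77 and -3.47 in wild type and -2.40 and -3.75 in the knockout, with knockout 1 highest and knockout 2 lowest as in Cyp1a1. That order held in 2 of the 8 genes, against 16.3% of all tested genes.

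**Figure D3:**
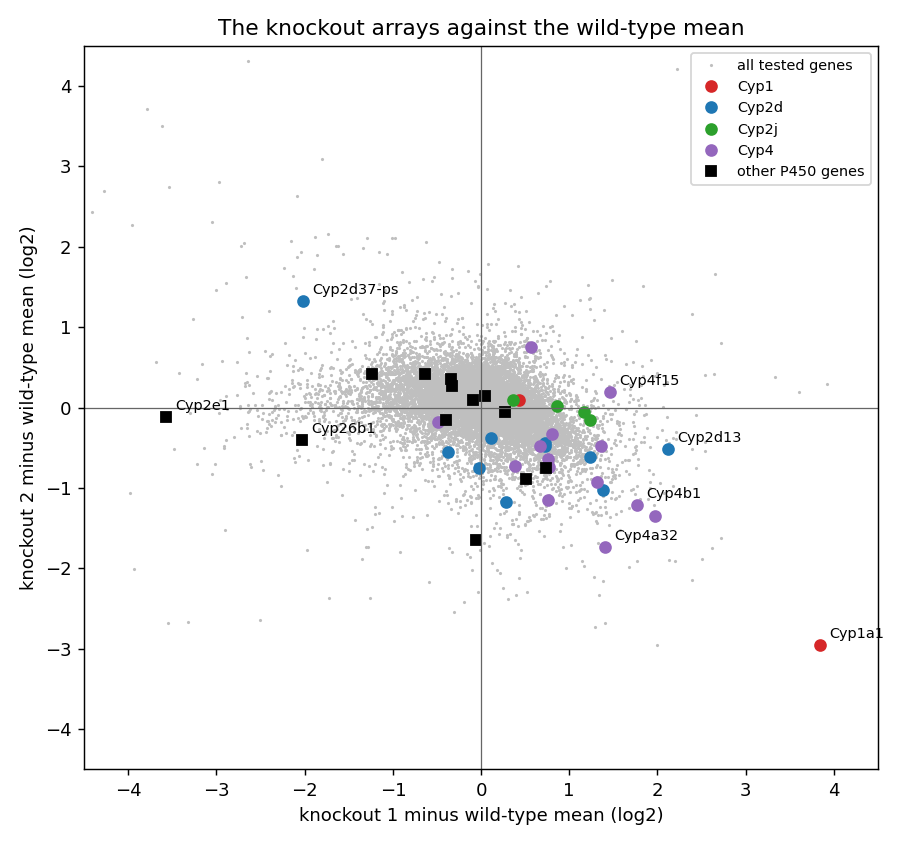
Each point is a tested gene, placed by its level in knockout 1 (x) and knockout 2 (y) minus the wild-type mean (log2), with grey for all genes and colours for P450 groups, and genes beyond the axes are not drawn. Many P450 genes lie to the lower right, and Cyp1a1 lies alone at 3.84 and -2.96.

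The Cyp2d genes, relatives of the human drug-metabolising CYP2D6, were all 10 above background on at least 2 arrays. Their fitted differences were above 0 in 5 and below 0 in 5 (median -0.0070), and 6 had knockout 1 highest and knockout 2 lowest. Cyp2d26 read 6.58 and 6.06 in wild type and 7.04 and 5.87 in the knockout (difference 0.14, SE 0.49). Cyp2d11 read 4.79 and 4.13 in wild type and 5.18 and 3.98 in the knockout (difference 0.12, SE 0.48). In both genes the knockout arrays enclosed the wild-type arrays. Cyp2d12, Cyp2d13, Cyp2d22 and Cyp2d40 had the same order. Of these, Cyp2d13 was not well above background on wild type 1 and knockout 2, nor was Cyp2d40 on knockout 2. Cyp2d12, named after its values were seen, showed it most widely among those above background on all arrays, with 1.14 and 1.03 in wild type against 2.47 and 0.05 in the knockout.

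Cyp2d10 was the only member with both knockout arrays below both wild-type arrays, a pattern of 6.08% of all tested genes. It read 0.59 and 0.40 in wild type and 0.12 and -0.07 in the knockout, a 1.38-fold lower signal (difference -0.47, SE 0.27, unadjusted p = 0.136). The gap between the genotypes was 0.28, wider than either genotype's own pair, yet it did not pass the test. Cyp2d34 read -2.73 and -2.02 in wild type and -2.40 and -3.13 in the knockout, so its arrays overlapped (difference -0.38, SE 0.44). Cyp2d9 was not well above background on knockout 2. Members of this family are close in sequence, and whether a probe also binds its neighbours' transcripts was not tested.

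The Cyp2j genes encode epoxygenases of arachidonic acid, and 4 of the 6 on the array were tested (the group's other member, the fatty acid hydroxylase Cyp2u1, was not). All 4 differences were above 0 (56.2% of all tested genes), with a median of 0.49, and all 4 had knockout 1 highest. Cyp2j13 read -0.92 and -0.96 in wild type and -0.08 and -0.92 in the knockout (difference 0.44, SE 0.36). Cyp2j9 read -1.23 and -1.34 in wild type and -0.93 and -1.19 in the knockout (difference 0.23, SE 0.30). These are the 2 members with both knockout arrays above both wild-type arrays (4.65%; 8.65% of all genes), in Cyp2j13 with knockout 2 and wild type 1 equal to 2 decimals. Cyp2j8 read 0.61 and 0.69 in wild type and 1.81 and 0.60 in the knockout, so that 1 array alone stood out (difference 0.56, SE 0.43). The deviation of knockout 2 from the wild-type mean ran from -0.16 to 0.094 over the 4 genes.

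Cyp4 enzymes hydroxylate fatty acids and their signalling derivatives at the far end of the chain, and 14 of their 22 genes were tested. Of these, 10 had knockout 1 highest and knockout 2 lowest: Cyp4a10, Cyp4a31, Cyp4a32, Cyp4b1, Cyp4b1-ps2, Cyp4f13, Cyp4f14, Cyp4f17, Cyp4f40 and Cyp4v3. The pseudogene Cyp4b1-ps2 was not well above background on wild type 1 and knockout 2. The group's median deviation was 0.79 in knockout 1 and -0.68 in knockout 2, and its median difference between genotypes was 0.14, with 10 above 0 and 4 below. Cyp4f14, which inactivates leukotriene B4 and degrades vitamin E, read 4.68 and 4.07 in wild type and 5.74 and 3.90 in the knockout (difference 0.44, SE 0.62). Cyp4v3, the counterpart of the human retinal disease gene CYP4V2, read 2.83 and 2.66 in wild type and 4.06 and 1.82 in the knockout (difference 0.19, SE 0.69). In both, the knockout arrays lay on either side of the wild-type pair.

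Cyp4a32 and Cyp4b1, whose promoters are shown above and which were chosen for their gap, had the same form. Cyp4a32 read -1.39 and -0.65 in wild type and 0.38 and -2.75 in the knockout, an 8.79-fold gap between the knockout arrays. Cyp4b1, which activates the lung toxin 4-ipomeanol, read 0.77 and 1.59 in wild type and 2.95 and -0.04 in the knockout, a 7.91-fold gap. All 3 probes of Cyp4a10, a fatty acid hydroxylase under PPAR alpha, had knockout 1 highest and knockout 2 lowest. Cyp4a10 is named after its values were seen.

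Cyp4f15 had the smallest p of family 4. It read -0.88 and -1.27 in wild type and 0.39 and -0.89 in the knockout, with knockout 1 alone high and knockout 2 between the wild-type arrays (difference 0.83, SE 0.47, unadjusted p = 0.127). Without knockout 2 limma called it higher (1.46, adjusted p = 0.031), again on the strength of 1 array. The pseudogene Cyp4f41-ps read -3.75 and -5.31 in wild type and -3.97 and -3.78 in the knockout, and wild type 2 was not well above background (difference 0.66, SE 0.63). Cyp4f18, the leukotriene hydroxylase of neutrophils, deviated from the wild-type mean by -0.49 in knockout 1 and -0.18 in knockout 2. Of 14 genes of the PPAR alpha pathway 0 were called and 12 had a difference above 0 (56.2% of all tested genes), and 2 of the 14 follow. Ppara read 1.86 and 1.21 in wild type and 2.21 and 1.98 in the knockout (difference 0.55, SE 0.32). The thioesterase gene Acot1 read 1.28 and 1.48 in wild type and 1.89 and 1.61 in the knockout (difference 0.37, SE 0.27). In each, the genotypes did not overlap. Ppara and Acot1 were the 2 of the 14 with both knockout arrays above both wild-type arrays, a pattern of 8.65% of all tested genes.

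**Figure D4:**
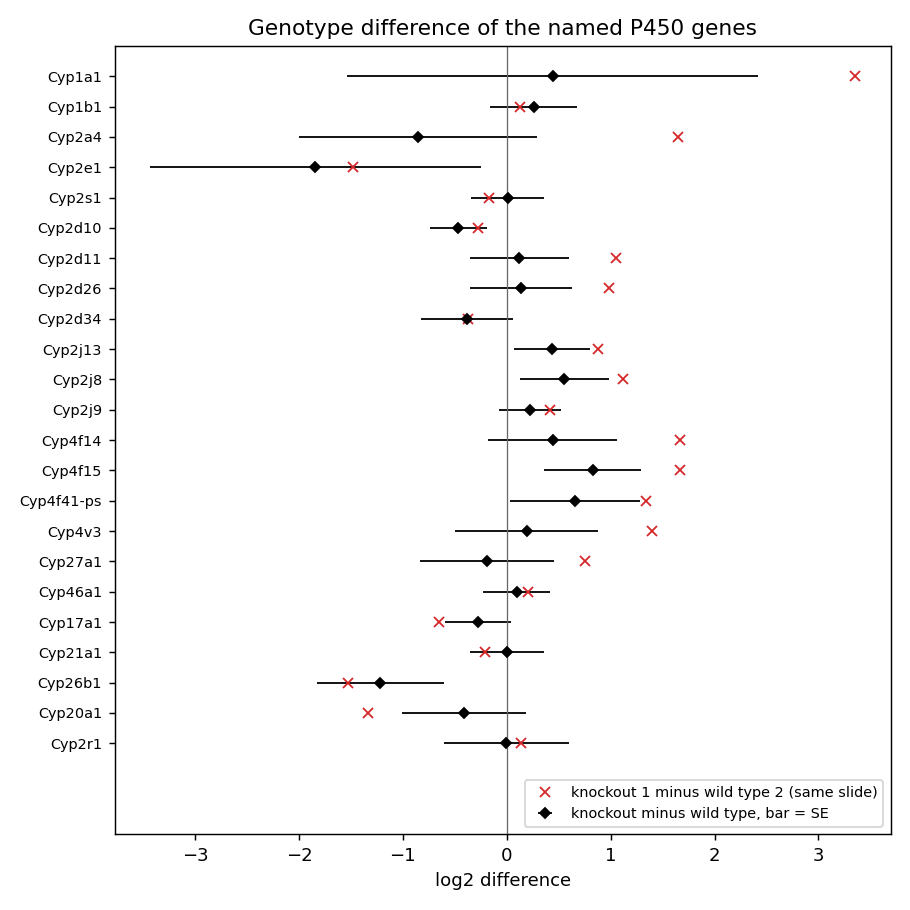
Diamonds give the difference knockout minus wild type (log2) with limma's SE as bars for the P450 genes named by the fixed rule, and crosses give knockout 1 minus wild type 2, which shared a slide. Many bars cross 0 and none of the genes passed the test, and the crosses lie to the right of the diamonds in most rows of the Cyp2d, Cyp2j and Cyp4 groups.

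A further set of family 2 genes followed wild type 1 rather than genotype. Cyp2e1, the liver's oxidiser of ethanol and small solvents, read -0.47 and -4.65 in wild type and -6.13 and -2.68 in the knockout. The probe used was well above background on wild type 1 and knockout 2 only (a second, dimmer probe on wild type 1 and 2), and the measured signal was 3.58-fold lower in the knockout (difference -1.84, SE 1.59). Cyp2a4, a steroid 15 alpha-hydroxylase, read -1.34 and -4.75 in wild type and -3.10 and -4.69 in the knockout, with knockout 2 not above background (difference -0.85, SE 1.14). The untested Cyp2f2, known from lung and liver for its action on naphthalene, read -2.25 and -7.39 in wild type and -6.92 and -4.94 in the knockout, and Cyp2a12, a hydroxylase of liver, read -3.32 and -5.72 against -6.44 and -4.27. All 4 had their highest level in wild type 1, and the genotypes overlapped in each.

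Most hepatocyte markers had the same high array: 6 of the 7 tested were highest in wild type 1, and F2 (prothrombin) was highest in wild type 2. Of the 13 on the list, 6 others (Fga, Fgb, Fgg, Hpx, Serpina3k and C9) were not above background on at least 2 arrays. All 7 differences were below 0 (43.8% of all tested genes). The list's log2 summed level came to 3.40 and 0.17 in wild type and -0.81 and 0.71 in the knockout. Albumin (Alb) read 1.33 and -5.50 in wild type and -5.56 and -2.60 in the knockout. The part of liver RNA in the levels of Cyp2e1, Cyp2a4, Cyp2f2 and Cyp2a12 was not tested.

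**Figure D5:**
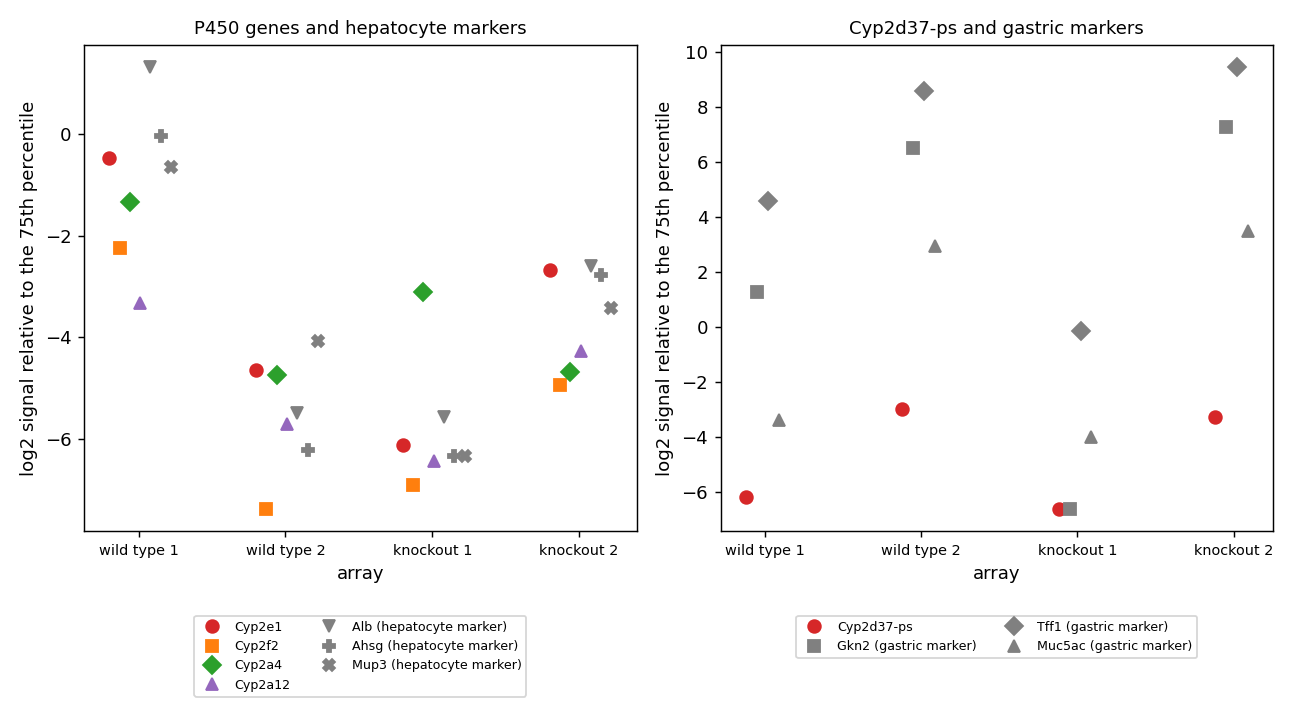
Levels (log2 relative to the 75th percentile) in each array of 4 family 2 P450 genes beside 3 hepatocyte markers (left) and of Cyp2d37-ps beside 3 gastric markers (right), values below background included. On the left wild type 1 is highest for every gene, and on the right Cyp2d37-ps reads -3.01 and -3.28 on the arrays with the highest gastric markers.

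The remaining genes of that group differed little between arrays. Cyp2s1, an epithelial P450 outside the liver, read 4.42 and 4.09 in wild type and 3.91 and 4.61 in the knockout, with knockout 2 highest and knockout 1 lowest (difference 0.0092, SE 0.35). Cyp2t4 differed by 0.11 (SE 0.36).

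P450s of the bile acid and sterol group showed small differences, from -0.19 to 0.10 over the 4 tested genes. Cyp27a1, the mitochondrial sterol 27-hydroxylase, read -4.43 and -4.93 in wild type and -4.17 and -5.57 in the knockout, and was not well above background on wild type 1 and knockout 2 (difference -0.19, SE 0.64). Cyp46a1, the cholesterol 24-hydroxylase of neurons, read -1.81 and -2.13 in wild type and -1.92 and -1.82 in the knockout (difference 0.10, SE 0.32). Cyp7b1 and Cyp39a1, which hydroxylate oxysterols, had differences of -0.031 (SE 0.38) and -0.11 (SE 0.40), with knockout 2 highest and knockout 1 lowest in both. Of 11 genes tested on the bile acid and FXR list 0 were called. The ileal bile acid carrier gene Slc10a2 read -5.08 and -4.47 in wild type and -3.05 and -4.21 in the knockout and was above background on 2 arrays only (difference 1.14, SE 0.58). The cholesterol exporter gene Abca1 read -2.67 and -2.28 in wild type and -1.28 and -2.24 in the knockout (difference 0.71, SE 0.43). Both were highest in knockout 1. They were the 2 of the 11 with both knockout arrays above both wild-type arrays, a pattern of 8.65% of all tested genes.

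Among P450s of steroid hormone synthesis, Cyp17a1 and Cyp21a1 were tested. Cyp17a1, the 17 alpha-hydroxylase, read 3.82 and 4.33 in wild type and 3.68 and 3.92 in the knockout, and the genotypes overlapped (difference -0.28, SE 0.31). Cyp21a1, the 21-hydroxylase, read -2.78 and -2.54 in wild type and -2.75 and -2.56 in the knockout, a difference of 0.0022 (SE 0.35). Of 5 adrenal cortex markers, Star, Nr5a1 and Akr1b7 were tested, and Mc2r and Cyp11a1 were not above background on at least 2 arrays. The log2 summed level of the 3 tested was 2.37 and 2.21 in wild type and 3.83 and 1.70 in the knockout. That sum mostly follows Akr1b7, which read 2.26 and 2.05 in wild type and 3.79 and 1.51 in the knockout. Nr5a1 read -1.63 and -1.25 in wild type and -1.71 and -1.50 in the knockout. Neither Nr5a1 nor Star was highest in knockout 1. The part of adrenal RNA in the levels of Cyp17a1 and Cyp21a1 was not tested. Of 10 partner genes tested 0 were called. Star, which carries cholesterol into mitochondria, read -4.15 and -4.02 in wild type and -4.70 and -4.68 in the knockout and was above background on 3 arrays (difference -0.61, SE 0.46). The nuclear receptor gene Nr5a2 read 1.20 and -0.17 in wild type and 0.79 and 1.26 in the knockout (difference 0.51, SE 0.49). The genotypes did not overlap for Star and overlapped for Nr5a2. Star was the 1 gene of the 10 with both knockout arrays below both wild-type arrays, a pattern of 6.08% of all tested genes.

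Cyp26b1, which clears retinoic acid, had the smallest p of all members. It read 0.32 and -0.68 in wild type and -2.21 and -0.59 in the knockout, a 2.33-fold lower mean signal (difference -1.22, SE 0.61, unadjusted p = 0.0917, limma's adjusted p = 1.00). Knockout 1 alone was low, and knockout 2 lay between the wild-type arrays. With normexp on all spots the difference was -0.64, without knockout 2 it was -2.03 (limma's adjusted p = 0.0141), and without knockout 1 it was -0.41. Smooth muscle and fibroblast markers were also lowest in knockout 1 by their summed levels (fibroblasts 5.14 and 5.66 in wild type, 4.83 and 5.84 in the knockout), and their part in this value was not tested. Of 11 genes of the retinoid pathway 0 were called and 5 had a difference above 0, and 2 of them follow. Aldh1a1, which makes retinoic acid, read 4.98 and 4.63 in wild type and 6.43 and 5.04 in the knockout (difference 0.93, SE 0.50). The absorptive cell's retinol-binding protein gene Rbp2 read 4.26 and 3.26 in wild type and 4.71 and 3.66 in the knockout (difference 0.42, SE 0.49). Both were highest in knockout 1. Aldh1a1 was the 1 gene of the 11 with both knockout arrays above both wild-type arrays, a pattern of 8.65% of all tested genes.

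Cyp2r1, a vitamin D 25-hydroxylase, read 0.99 and 2.19 in wild type and 2.33 and 0.84 in the knockout, so the spread within each genotype exceeded the difference of -0.0062 (SE 0.60). Cyp20a1, whose reaction is not established, read -2.87 and -2.68 in wild type and -4.02 and -2.36 in the knockout, with knockout 1 alone low (difference -0.41, SE 0.60).

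Most genes of electron supply and haem metabolism were highest in knockout 1. Of 11 tested genes of that list 0 were called by limma and all 11 differences were above 0 (56.2% of all tested genes). Knockout 1 was highest in 9, in 7 of them with knockout 2 lowest (an order of 16.3% of all tested genes). Fdx2 was highest in knockout 2 and Fdxr in wild type 1. Cyb5a, cytochrome b5, read 5.12 and 5.06 in wild type and 6.88 and 5.12 in the knockout (difference 0.91, SE 0.58). Hmox1, which breaks haem down, read -1.51 and -0.63 in wild type and 0.42 and -1.15 in the knockout (difference 0.70, SE 0.58). In both only knockout 1 stood apart. The receptor genes Nr1i2 (PXR) and Nr1i3 (CAR), which govern many P450 genes, were also highest in knockout 1. Nr1i2 read 0.89 and 0.57 in wild type and 1.93 and 0.75 in the knockout (difference 0.61, SE 0.43). Nr1i3 read 1.80 and 1.03 in wild type and 2.09 and 1.12 in the knockout (difference 0.19, SE 0.44).

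The 21 members with knockout 1 highest and knockout 2 lowest mostly came from gene clusters. Of the 19 that code for protein, 16 (84.2%) had another P450 gene as a direct neighbour in the RefSeq table, against 9 of 20 (45%) of the other tested members. Such neighbours are often close in sequence, so they are not independent observations. Promoter windows were matched for 46 of the 69 members. GCGTG, on either strand, was in the windows of 3 of 14 of those 21 members with a window (21.4%), 6 of 15 other tested members (40%), 3 of 17 untested members (17.6%) and 28.2% of all 27025 genes with a window. TATAAA was in 35.7%, 33.3% and 29.4% of these groups and in 13% of all windows. The nuclear receptor half-site AGGTCA was in 0%, 6.67% and 23.5%, and in 13.8% of all. No motif of these 3 contains another, and a match is a description of the letters alone.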

How the data were processed

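Small intestine RNA of 2 genotypes with 2 arrays each, grouped by the labels' genotype, was hybridised to 1-colour mouse arrays. Scanning software was Agilent Feature Extraction 11.5.1.1, per the submitters' processing notes. Spot intensity as deposited is, per the file headers, background-subtracted, detrended and not scaled between arrays. The authors' value table holds log2 values centred on each probe over the 4 arrays; after the same centring each column had a correlation of 1.00 with the scanner values. Its column medians were 0.05, -0.10, -0.11 and 0.12 (wild type 1 and 2, knockout 1 and 2). It served as an alternative.

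Control and outlier spots (91 to 129 an array) were left out, log2 signals of a probe were averaged, and each array's 75th percentile (signals of 226, 356, 322 and 175) was subtracted. Of 39429 probes, 28025 matched 1 symbol by accession in RefSeq's table and 11404 none. Probes well above background on at least 2 arrays (24013) were kept, and genotypes were compared in limma's lmFit and trended eBayes (limma 3.58.1, R 4.3.3), adjusted by Benjamini-Hochberg over 14399 genes at 0.05. The fit was tested on simulated data.

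The members, gene lists and rules were chosen with earlier results of these data known. Values in each array are given for the members with the brightest probes, those without overlap, those at least 2-fold apart and the 2 of smallest p per role, and for the 2 genes of smallest p per pathway list. Names outside this rule, among them Cyp2d12, Cyp4a10, Cyp4a32, Cyp4b1, Cyp2f2, Cyp2a12 and Cyp2d37-ps, were chosen after their values were seen.

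Alternatives were other background corrections, scalings, filters, probe rules and variance settings, a replicate block, the shared slide and leaving out each array. The planned normexp used median spot signals, not mean ones. Replicate numbers are not known to pair animals: same-numbered arrays' deviations from their group means had a correlation of 0.05 over 14398 genes, so the fit has no block. p-values measure the spread between these arrays only.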

Additional observations from a re-analysis of the deposited data

How the results depend on the processing

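No P450 gene was called by limma under any change of background correction, scaling, filter, probe rule or variance setting, or in the authors' table. Leaving out 1 array moved the number of called members between 0 and 6 and of all genes between 0 and 441, the most without knockout 2 (441 genes; Cyp1a1, Cyp2d12, Cyp2j6, Cyp4b1 and Cyp4f15 higher, Cyp26b1 lower). Without knockout 1 there were 12 genes and 1 member (Cyp1a1, lower). Without wild type 1 or 2 there were 0 genes (48 and 57 at an unadjusted p under 0.05). The lone array of a genotype was then assumed to vary like the others. Over all genes, normexp on all spots called 13 and the filter on all 4 arrays 0 (41 unadjusted), since it drops the deleted Cyp3a genes. With the replicate number as a block, which the pairing check did not favour, 32 genes and 0 members were called.

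The median difference of the members was 0.49 under normexp on all spots, 0.12 under median scaling and between -0.45 and 0.56 when 1 array was left out. The count of members with knockout 1 highest and knockout 2 lowest, recomputed after the data were seen, ran from 14 to 21. It was furthest from the main setting under normexp on all spots (32.6% of members, 21.4% of all genes), with bright backgrounds replaced it was 39.5% against 14.9%, and without the filter 30.4% against 11.7%. Normexp on all spots turned the sign of Cyp2a4 (0.57), Cyp2e1 (0.12), Cyp2s1 (-0.65), Cyp2d11 (-0.52), Cyp2d26 (-0.54), Cyp2d34 (0.61), Cyp4f14 (-0.17), Cyp4v3 (-0.29), Cyp27a1 (0.99) and Cyp20a1 (0.52). Knockout 2 had 6 spots with a local background above 100, up to 37800. With these set to the array's median, an alternative added after the data were seen, only Cyp2s1 (-0.055) and Cyp27a1 (0.20) turned. Median scaling turned Cyp2r1 (0.053) and quantile normalization Cyp2s1 (-0.093).

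Leaving out 1 array turned Cyp1a1 (-2.96 to 3.84), Cyp1b1 (-0.038 to 0.56), Cyp2a4 (-2.56 to 0.86), Cyp2e1 (-3.93 to 0.25), Cyp2s1 (-0.34 to 0.36), Cyp2d11 (-0.48 to 0.72), Cyp2d26 (-0.45 to 0.72), Cyp2j8 (-0.052 to 1.16), Cyp4f14 (-0.48 to 1.37), Cyp4f41-ps (-0.12 to 1.44), Cyp4v3 (-0.93 to 1.31), Cyp27a1 (-0.89 to 0.51), Cyp46a1 (-0.063 to 0.25), Cyp21a1 (-0.12 to 0.12), Cyp20a1 (-1.24 to 0.42) and Cyp2r1 (-0.75 to 0.74). Cyp2d10 (-0.56 to -0.37), Cyp2d34 (-0.75 to -0.02), Cyp2j9 (0.09 to 0.36), Cyp2j13 (0.02 to 0.86), Cyp4f15 (0.19 to 1.46), Cyp17a1 (-0.53 to -0.02) and Cyp26b1 (-2.03 to -0.41) kept their sign. The cause of these turns was not tested. Signals near background limit Cyp2e1, Cyp2a4, Cyp27a1 and Cyp4f41-ps.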

Other observations

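P450 proteins with other symbols, which the choice by symbol leaves out, were both tested. Tbxas1, thromboxane synthase of platelets and macrophages, read -2.33 and -2.45 in wild type and -2.84 and -2.84 in the knockout (difference -0.45, SE 0.34). Its knockout arrays were both below both wild-type arrays, a pattern of 6.08% of all tested genes, with no call by limma (adjusted p = 1.00). Ptgis, prostacyclin synthase of vessel and muscle walls, read -0.50 and -0.56 in wild type and -1.50 and 0.05 in the knockout (difference -0.19, SE 0.52). Its knockout arrays lay on either side of wild type, in the order opposite to that of 21 of the 43 tested P450 genes.

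The pseudogene Cyp2d37-ps was well above background on wild type 2 (-3.01) and knockout 2 (-3.28) and not on wild type 1 (-6.20) or knockout 1 (-6.62). Genes of the stomach lining were highest on the same arrays. Gkn2 read 1.27 and 6.49 in wild type and -6.64 and 7.24 in the knockout, and Tff1 read 4.57 and 8.56 in wild type and -0.16 and 9.45 in the knockout. Of 6 gastric markers, 4 were tested, and the acid pump genes Atp4a and Atp4b were not above background on at least 2 arrays. The list's log2 summed level was 4.72 and 8.90 in wild type and -0.04 and 9.75 in the knockout. The part of stomach RNA in this pseudogene's level was not tested, and Cyp2d37-ps may also be read through transcripts of its close relatives.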
